A study of Mus musculus with 20 samples.

Results

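Transcript levels of epoxide hydrolases and aldo-keto reductases were examined in the liver of mice exposed to benzo(a)pyrene (BaP). The members were all array probes whose accession names 1 of 10 listed genes: *Ephx1*, *Ephx2*, *Akr1a1*, *Akr1c6*, *Akr1c13*, *Akr1c14*, *Akr1c19*, *Akr1c20*, *Akr1d1* and *Akr7a5*. Of these, 8 were matched, by 10 probes in all, out of 16535 genes named on the array. *Akr1c13* and *Akr1c20* matched no probe and have no value here. All 10 probes were present by the filter on dim probes, which 27346 probes passed, and the liver signal of each stood well above background on all 20 arrays.

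The animals were male Muta™Mouse aged 25 weeks, a transgenic strain that carries a bacterial *lacZ* reporter for mutations, a feature shared by controls and exposed mice alike. Controls were given olive oil by gavage, and the exposed groups were given BaP in olive oil at 25, 50 or 75 mg/kg/day over 28 days, with 5 mice in each of the 4 groups and liver taken 3 days after the last dose. Mice are numbered 1 to 20 over the groups, in the order of dose, and values are given below in the order of these numbers. RNA of each mouse was labeled with Cyanine 5 and hybridized once, beside a universal mouse reference RNA labeled with Cyanine 3, so each value below is the log2 ratio of liver over reference for 1 probe. Such a ratio can be compared between mice for a given probe but not between probes, and in whole liver, fewer cells of a type and less RNA per cell cannot be told apart. Because each animal is a separate mouse, the spread between arrays includes the spread between animals, and the number of arrays limits the precision.

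BaP is a ring hydrocarbon that becomes harmful after it is oxidized. Cytochrome P450 enzymes place an epoxide on the molecule, the microsomal epoxide hydrolase EPHX1 opens this epoxide to a dihydrodiol, and a further oxidation yields the diol epoxide that binds DNA. Aldo-keto reductases can take the same dihydrodiol and oxidize it to a catechol and then a quinone, and they also reduce aldehydes, ketones and steroids. In the liver, the family is better known for steroid and bile acid turnover, and the soluble epoxide hydrolase EPHX2 for the breakdown of epoxy fatty acids.

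The genes of the AKR1C group lie side by side on chromosome 13 (GRCm38.p6), from *Akr1c14* at chr13:4048991-4090560 and *Akr1c13* at chr13:4191168-4205604 through *Akr1c19* at chr13:4233503-4248361 and *Akr1c6* at chr13:4434311-4457530 to *Akr1c20* at chr13:4486856-4523354. *Akr1a1* (chr4:116636510-116651674) and *Akr7a5* (chr4:139310720-139318786) share chromosome 4. *Ephx1* lies at chr1:180989556-181017569, *Ephx2* at chr14:66084372-66124522 and *Akr1d1* at chr6:37529978-37574921. Because the AKR1C genes are near copies of each other, a probe for one of them may also pick up transcripts of its neighbors, which was not tested.

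The upstream sequences of *Ephx1* and *Akr1c6*, the members closest to a change, and of *Nqo1*, a quinone reductase gene described further on, are shown because BaP activates the aryl hydrocarbon receptor, which binds the letters GCGTG. The 250 bases before each start are taken from RefSeq (GRCm38.p6), on the strand of the gene, at chr1:181017570-181017819 (minus strand), chr13:4434093-4434342 (plus strand) and chr8:107403206-107403455 (minus strand).
Ephx1: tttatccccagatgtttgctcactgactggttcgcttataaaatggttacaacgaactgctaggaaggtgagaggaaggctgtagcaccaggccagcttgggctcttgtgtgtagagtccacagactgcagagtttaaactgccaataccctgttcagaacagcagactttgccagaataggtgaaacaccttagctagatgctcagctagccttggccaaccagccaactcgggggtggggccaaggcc
Akr1c6: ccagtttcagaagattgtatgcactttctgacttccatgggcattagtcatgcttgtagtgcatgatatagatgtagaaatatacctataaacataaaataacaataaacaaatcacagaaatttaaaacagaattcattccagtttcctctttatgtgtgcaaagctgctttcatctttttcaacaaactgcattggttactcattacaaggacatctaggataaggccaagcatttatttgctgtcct
Nqo1: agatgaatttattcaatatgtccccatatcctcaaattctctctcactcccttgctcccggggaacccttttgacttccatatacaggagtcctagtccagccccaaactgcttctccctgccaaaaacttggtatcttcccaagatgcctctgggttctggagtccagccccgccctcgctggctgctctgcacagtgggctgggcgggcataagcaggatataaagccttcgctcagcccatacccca
Capitals would mark GCGTG or TGACNNNGC, the antioxidant response element, on either strand, and there are none in these sequences. Windows were held for 8 of the 10 listed genes, all but *Ephx2* and *Akr1c20*, and 0 of those 8 held GCGTG and 0 held TGACNNNGC, against 28.2% and 10.2% of 32851 windows of the same length. The share of G and C in them ran from 34% in *Akr1c6* to 68.8% in *Akr7a5*, with 51.2% in *Ephx1*. A match would describe letters in this window, and no match says nothing of the factor or of sites farther away. The starts used here can differ from the gene bounds given above. The windows of *Akr1c6*, *Akr1c13*, *Akr1c19*, *Akr1d1* and *Akr7a5* reach past the lower bound of the gene. That of *Akr1c14* (chr13:4059341-4059590) lies inside the gene.

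None of the 8 measured members was called at any dose. limma, with all 20 arrays in a single model and Benjamini-Hochberg adjustment over the 27346 present probes, called 0 of 8 members at 25 mg/kg/day, 0 at 50 and 0 at 75, where a call needs both an adjusted p below 0.05 and a change of more than 1.5-fold. The same rule called 0% of all present probes at 25 mg/kg/day, 0% at 50 and 0.135% (37 probes) at 75. A linear trend over dose was called for 0 of 8 members and for 0.157% of all probes (43 probes). At an unadjusted p under 0.05, 1 member was higher at 25 mg/kg/day (*Akr1c6*) against 4.18% of all probes, 2 were higher at 50 (*Ephx1* and *Akr1c6*) against 3.75%, and the same 2 were higher at 75 against 6.52%. For the trend they were again *Ephx1* and *Akr1c6*, 2 of 8, against 5.07%. Each member was counted on its brightest probe. The dimmer *Ephx1* probe had an unadjusted p from limma of 0.0588 at 50 mg/kg/day and 0.0751 at 75. For 0 of 8 members did all exposed arrays lie above all control arrays at 25, 50 or 75 mg/kg/day, while 0.559%, 0.516% and 0.936% of all probes did so.

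*Ephx1*, the gene of the enzyme that opens BaP epoxides, had a fold of 1.37 at the middle and at the highest dose and close to control at the lowest, short of the threshold. In the 5 control mice its log2 ratio was 1.69, 2.04, 1.18, 1.30 and 1.07. The mice at 25 mg/kg/day had 1.91, 1.11, 1.41, 1.35 and 1.85. The mice at 50 mg/kg/day had 2.36, 1.21, 2.26, 2.06 and 1.66, and those at 75 had 1.97, 2.02, 1.63, 2.12 and 1.81. The highest control thus lay above 4 of the 5 values at 75 mg/kg/day, and 1 value at 50 lay among the lower controls. The log2 fold change was 0.070 (SE 0.21) at 25 mg/kg/day, 0.45 (SE 0.21) at 50 and 0.45 (SE 0.21) at 75, with limma adjusted p of 0.954, 0.736 and 0.441. The 95% interval at 75 mg/kg/day ran from a fold of 1.00 to 1.87. With the liver channel alone, without the ratio to the reference, the log2 fold change was 0.093 at 50 mg/kg/day and 0.27 at 75. The slope over dose was 0.17 on the log2 scale for each step of 25 mg/kg/day (SE 0.067, adjusted p = 0.448).

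*Ephx1* has a second, dimmer probe, and both gave nearly the same picture. The correlation of the 2 probes was r = 0.986 over the 20 arrays, which share their RNA and slide. On the dimmer probe the group means were 1.63 ± 0.33 (SD, n = 5) in controls, 1.63 ± 0.35 at 25 mg/kg/day, 2.04 ± 0.44 at 50 and 2.02 ± 0.23 at 75. Its log2 fold change was 0.41 (SE 0.20) at 50 mg/kg/day and 0.38 (SE 0.20) at 75, with adjusted p of 0.746 and 0.494.

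**Figure D1:**
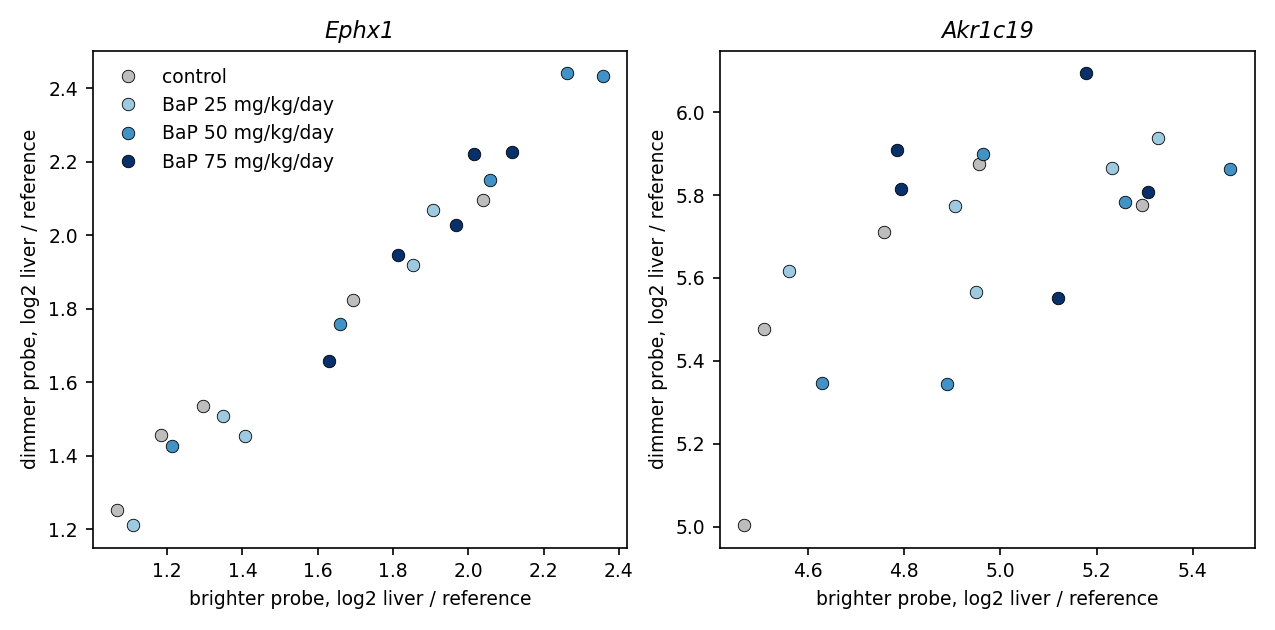
Log2 ratio of liver over reference on the dimmer probe (vertical axis) against the brighter probe (horizontal axis) for *Ephx1* (left) and *Akr1c19* (right), 1 point for each of the 20 arrays, colored by dose group. The *Ephx1* points lie close to a line (r = 0.986), and the *Akr1c19* points scatter widely (r = 0.635).

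*Ephx2*, whose product breaks down epoxy fatty acids, had no ordered relation with dose in the ratio to the reference. Control mice had log2 ratios of 7.74, 7.78, 7.39, 6.81 and 7.54. The mice had 7.87, 8.37, 7.73, 7.31 and 7.28 at 25 mg/kg/day, 7.33, 8.23, 7.84, 7.77 and 7.75 at 50, and 7.30, 7.37, 7.37, 8.00 and 7.54 at 75. Control replicate 4 was the lowest of all 20 arrays, and the remaining controls lay within the range of the exposed mice. The log2 fold change was 0.26, 0.33 and 0.063 (SE 0.21 each) from the lowest dose to the highest, with adjusted p of 0.773, 0.795 and 0.943. Without replicate 7 the value at 25 mg/kg/day was 0.097, and without control replicate 4 it was 0.10 at 25 and 0.17 at 50. At 75 mg/kg/day the 95% interval ran from a fold of 0.766 to 1.43. With the liver channel alone, the log2 fold change fell in the order of dose, at -0.044, -0.17 and -0.51 (SE 0.19 each). The last had a limma p of 0.0139 before adjustment and 0.454 after it.

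*Akr1c6*, a hydroxysteroid dehydrogenase gene expressed in liver, had the smallest p of the members at each dose. The control ratios were 10.03, 9.43, 9.76, 9.11 and 9.38. The exposed mice had 10.32, 9.95, 10.11, 9.74 and 9.76 at 25 mg/kg/day, 10.02, 9.74, 9.73, 10.20 and 9.99 at 50, and 10.01, 9.75, 10.26, 10.16 and 10.30 at 75. Control replicate 1, at 10.03, lay inside the range of every exposed group, control replicate 3 lay just inside the lower end of these ranges, and the other 3 controls lay below every exposed mouse. The log2 fold change was 0.44 at 25 mg/kg/day, 0.39 at 50 and 0.56 at 75 (SE 0.16 each), a fold of 1.47 with a 95% interval of 1.17 to 1.85 at 75. The adjusted p from limma was 0.636, 0.707 and 0.194. The slope was 0.16 for each 25 mg/kg/day (SE 0.052, adjusted p = 0.320). With control replicate 1 left out, its value at the highest dose was 0.68 on the log2 scale and the adjusted p was 0.0625, the lowest reached by any member at any setting tried.

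The other genes of the AKR1C group varied less with dose. *Akr1c14*, a gene for a dehydrogenase that reduces ketosteroids, had control ratios of 6.74, 6.39, 6.17, 6.55 and 6.66. At 75 mg/kg/day the values were 6.53, 6.49, 7.09, 5.69 and 6.34, so these mice included both the lowest and the highest of all 20 arrays. Its log2 fold change was 0.10, 0.073 and -0.076 (SE 0.21 each) at 25, 50 and 75 mg/kg/day, the only negative value at any dose among the brightest probes of the members, with adjusted p of 0.923 to 0.969. *Akr1c19* had 2 probes that matched each other less well, at r = 0.635 over the 20 arrays. On the brighter probe the log2 fold change was 0.20, 0.25 and 0.24 (SE 0.18 each), and on the dimmer probe it was 0.18, 0.079 and 0.27 (SE 0.16 each). None passed the threshold. At 50 mg/kg/day, where the probes differed most, the fold was 1.19 on the brighter probe and 1.06 on the dimmer one.

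*Akr1d1*, which reduces a ring double bond of bile acid precursors, had the widest spread of the members. Its control ratios were 3.80, 2.97, 2.77, 3.44 and 3.33. The ratios were 4.29, 2.87, 3.72, 3.83 and 3.82 at 25 mg/kg/day, 3.89, 2.42, 4.08, 4.01 and 4.30 at 50, and 3.70, 3.89, 4.29, 3.03 and 3.70 at 75. At 50 mg/kg/day 4 of 5 mice lay above all controls and the other one lay below all of them. The log2 fold change was 0.44, 0.48 and 0.46 (SE 0.31 each), with adjusted p of 0.735, 0.803 and 0.605 and, at 75 mg/kg/day, a 95% interval from a fold of 0.874 to 2.17. Without replicate 12, the low mouse at 50 mg/kg/day, the value at that dose was 0.81 (adjusted p = 0.355). The scanner software's processed signals gave 1.05 at 50 mg/kg/day and 0.91 at 75. The reference RNA was well above background for this probe on 1 of 20 arrays, so the denominator of the ratio was dim.

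The aldehyde reductases also stayed short of the threshold. *Akr1a1*, a broad aldehyde reductase gene, had a mean log2 ratio of -0.096 ± 0.29 (SD, n = 5) in controls, 0.10 ± 0.25 at 25 mg/kg/day, 0.185 ± 0.23 at 50 and 0.050 ± 0.10 at 75. Its log2 fold change was 0.20, 0.28 and 0.15 (SE 0.14 each), with adjusted p of 0.736, 0.750 and 0.736. *Akr7a5*, a gene for a reductase of dialdehydes, had means of 2.64 ± 0.30, 2.67 ± 0.39, 2.87 ± 0.059 and 2.77 ± 0.36 from control to the highest dose. Its log2 fold change was 0.033, 0.23 and 0.13 (SE 0.18 each), with adjusted p of 0.976, 0.847 and 0.831. The 5 mice at 50 mg/kg/day were close together for *Akr7a5*, between 2.80 and 2.94, inside the control range of 2.35 to 2.98.

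**Figure D2:**
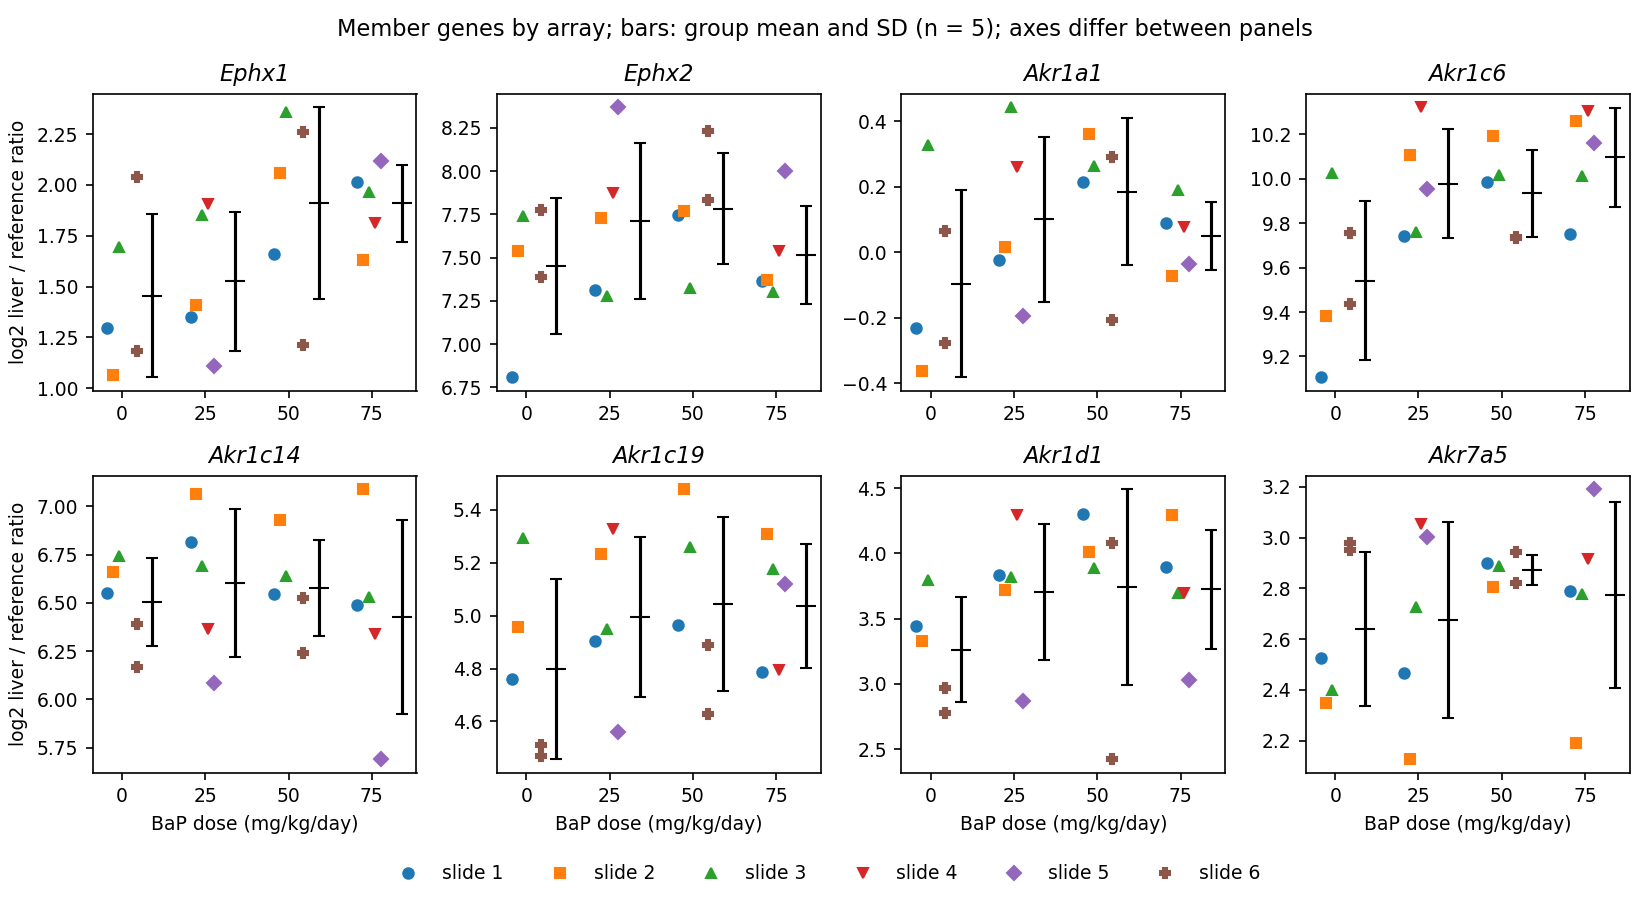
Log2 ratio of liver over reference (vertical axis, scaled for each gene) of the 8 measured genes by BaP dose (horizontal axis, mg/kg/day), 1 point for each array, with color and shape for the slide and a bar for the group mean and SD (n = 5). The control and exposed points overlap in all 8 panels, and *Akr1c14* sorts more by slide than by dose.

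Although no member was called, most fold changes were positive. The log2 fold change was above 0 for 8 of 8 members at 25 mg/kg/day, 8 of 8 at 50 and 7 of 8 at 75, against 50.3%, 49.2% and 50.6% of all present probes. The median over the members was 0.20, 0.31 and 0.19, where the median of all probes was 9e-04, -0.0032 and 0.0025. The size rested on the scaling: with the liver channel alone the member medians were 0.070, 0.11 and 0.15, with 5, 7 and 6 of 8 above 0, and with scale normalization between arrays they were 0.92, 1.25 and 0.19. Of the 10 hepatocyte marker genes, 8 were measured, all well above background on all arrays, and their median log2 fold change was 0.31, 0.25 and 0.39 at the 3 doses. The mean ratio over these markers ran from 4.61 to 5.90 in the control arrays, with a median of 5.17, and from 5.43 to 5.76 at 75 mg/kg/day, with a median of 5.69. In the 25 and 50 mg/kg/day groups it ran from 5.34 to 5.84 and from 5.33 to 5.79. The medians of both sets thus lay above 0 at each dose, and the part of the hepatocyte shift in the values of the members was not tested.

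Single control arrays moved these medians. Control replicate 1 was the highest of the 5 controls for 5 of the 8 members (*Akr1a1*, *Akr1c6*, *Akr1c14*, *Akr1c19* and *Akr1d1*) and the lowest for 0. Without it the member median was 0.31 at 25 mg/kg/day, 0.40 at 50 and 0.31 at 75, and 0 members were called at each dose. Control replicate 4, whose liver channel stood above background at 67.5% of spots while the other controls had 51.9% to 54.3%, was the lowest control for 2 members, *Ephx2* and *Akr1c6*. Without it the medians were 0.14, 0.24 and 0.17.

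The precision of these estimates sets how large a change could have been missed. The SE of a member was 0.14 to 0.31 on the log2 scale, with a median of 0.20, above the median of 0.14 over all probes. The 95% interval lay within 2-fold in either direction for 7 of 8 members at each dose, *Akr1d1* being the exception, and within 1.5-fold for 5 members at 25 mg/kg/day, 2 at 50 and 4 at 75. The highest upper bound, that of *Akr1d1* at 50 mg/kg/day, was 2.19-fold, and the lowest lower bound was a 1.43-fold decrease, in *Akr1c14* at 75.

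**Figure D3:**
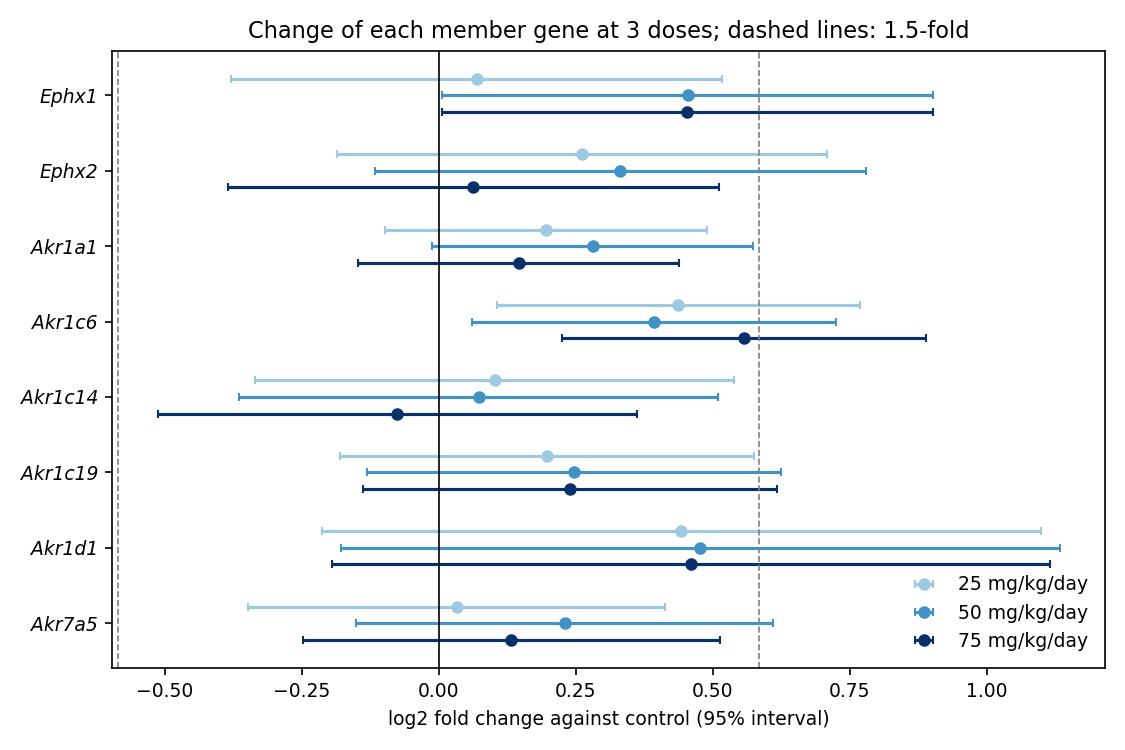
Log2 fold change against control (horizontal axis) of the 8 measured genes at 25, 50 and 75 mg/kg/day, as points with 95% intervals from limma, with dashed lines at 1.5-fold in either direction. The intervals are not adjusted for the number of probes. They exclude 0 for *Akr1c6* at all doses and for *Ephx1*, on its brighter probe, at 50 and 75 mg/kg/day. After adjustment, 0 of 8 members pass.

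The arrays lay on 6 slides. Since 6 slides hold more degrees of freedom (5) than 4 dose groups (3), the share of variance between them is given for each degree of freedom. On this scale 6 of 8 members had more variance between slides than between dose groups, led by *Akr1c14* with 16.7% against 1.48%, where the medians over all probes were 8.03% and 5.13%. *Ephx1* (3.38% between slides and 9.73% between groups) and *Akr1c6* (9.18% and 14.7%) had more between groups. Dose and the slot on the slide were nearly the same thing. The whole 25 mg/kg/day group occupied slot 2 and the whole 75 mg/kg/day group slot 4, while 4 of 5 controls were in slot 1 and 4 of 5 mice at 50 mg/kg/day in slot 3. The exceptions were control replicate 2 in slot 2 and replicate 13 at 50 mg/kg/day in slot 4, so 25 mg/kg/day against control shares a slot through 1 array, and for 50 and 75 mg/kg/day against control, dose and slot cannot be told apart.

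**Figure D4:**
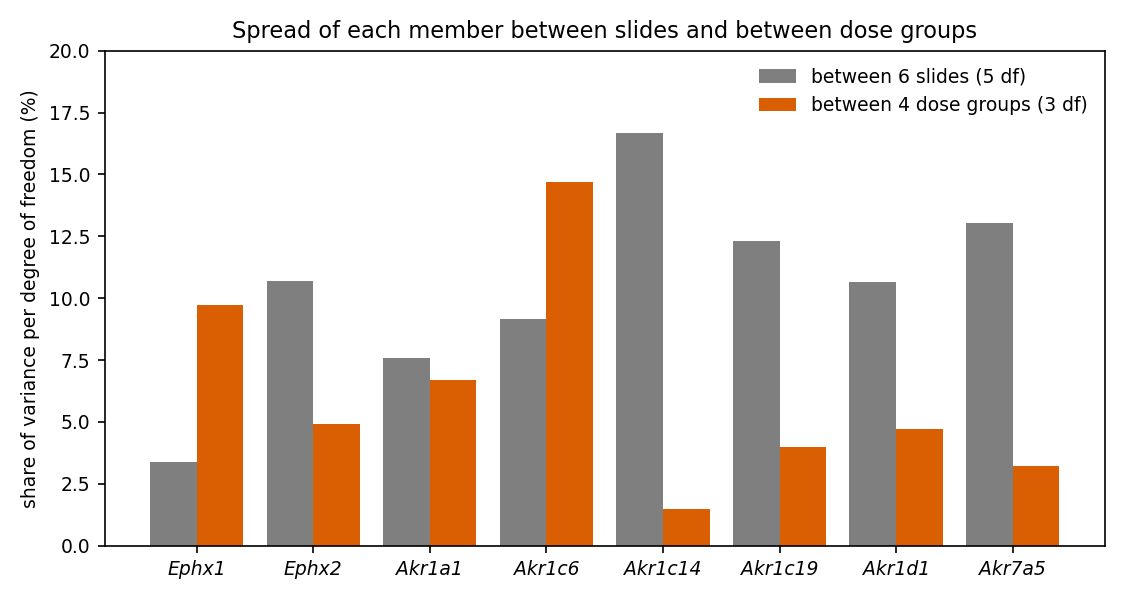
Share of the variance over 20 arrays for each degree of freedom (vertical axis, %) that lies between the 6 slides (gray bars) and between the 4 dose groups (orange bars) for each measured gene. The gray bar is taller for 6 of 8 genes, and *Ephx1* and *Akr1c6* are the exceptions.

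Within slides that held a control, the *Ephx1* value or mean of each exposed group was above that of the controls each time on its brighter probe. On the dimmer probe this held for all slides at 50 and 75 mg/kg/day and for 2 of 3 slides at 25, where slide 1 gave -0.026. The doses on a slide share its control. Single mice on slide 6 overlapped, as replicate 12 at 50 mg/kg/day (1.21 on the brighter probe) lay below control replicate 2 (2.04). On the brighter probe, at 50 mg/kg/day the difference from the control of the same slide was 0.36, 0.99, 0.67 and 0.13 on slides 1, 2, 3 and 6 (the last from the means of 2 mice each), and at 75 it was 0.72, 0.56 and 0.28 on slides 1 to 3. At 25 mg/kg/day it was smaller, at 0.052, 0.34 and 0.16 on the same 3 slides. *Akr1c6* at 75 mg/kg/day was higher by 0.65 on slide 1 and 0.88 on slide 2 but not on slide 3 (-0.017), the slide of control replicate 1. With slide as a fixed block, the estimate at the highest dose was 0.43 (SE 0.25, adjusted p = 0.477) for *Ephx1* and 0.41 (SE 0.16, adjusted p = 0.275) for *Akr1c6*. *Ephx2* went both ways on these slides, with 0.56, -0.17 and -0.44 at 75 mg/kg/day.

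Among the members, *Ephx1* ran most closely with *Akr1a1* (r = 0.768 over the 20 arrays, and 0.748 once the mean of each slide was removed). *Ephx1* and *Ephx2* were nearly unrelated (r = -0.050 and 0.0076). The lowest correlation, that of *Akr1c14* with *Akr7a5*, was r = -0.803 and moved to -0.403 without the slide means. These values describe arrays that share slides, labeling and reference RNA. Of 12801 other genes, those most like *Ephx1* were *Kctd3* (r = 0.867), *Nsfl1c* (r = 0.858) and *Entpd5* (r = 0.836), with *Ubac1* (0.908) and *Nsfl1c* (0.908) among the closest after removal of slide means. Those most like *Ephx2* were the liver genes *Fgb* (0.815), *Apof* (0.807) and *Fabp1* (0.804), and *Gimap3* (0.810), *Otc* (0.810) and *Mgll* (0.807) after removal.

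Other enzymes of these families gave no call either. Of 12 further epoxide hydrolase and aldo-keto reductase genes, 10 were present and 0 were called at any dose. Against 6.52% of all present probes, 3 of the 10 reached an unadjusted p under 0.05 at 75 mg/kg/day, all higher. *Akr1b8* and *Akr1b7*, aldose reductase relatives, had log2 fold changes of 0.48 (SE 0.16, adjusted p = 0.278) and 0.58 (SE 0.20, adjusted p = 0.283). *Akr1c18*, which breaks down progesterone, had 0.32 (SE 0.13, adjusted p = 0.369), and its liver signal was well above background on 10 of 20 arrays. The median of the 10 genes was 0.062, 0.069 and 0.11 at the 3 doses.

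In the pathway that makes and removes BaP metabolites, 0 of 22 present genes were called at the lower doses (0% of all present probes). At 75 mg/kg/day 1 was called, against 0.135% of all present probes. This was *Nqo1*, the quinone reductase whose upstream sequence is printed above. Its log2 ratio was -1.92, -2.02, -1.53, -1.76 and -1.87 in controls and -1.02, -1.10, -1.04, -1.25 and -1.29 at 75 mg/kg/day. All exposed mice at that dose thus lay above all controls, as they did for 0.936% of all present probes. The log2 fold change was 0.68 (SE 0.13, adjusted p = 0.0386). In this list 10 of 22 genes had an unadjusted p under 0.05 at 75 mg/kg/day, all higher, against 6.52% of all present probes. The median log2 fold change of the list was 0.20, 0.20 and 0.33 from the lowest dose to the highest. Of the 8 hepatocyte markers, 5 were also higher at an unadjusted p under 0.05 at 75 mg/kg/day, with a median of 0.39. The part of the hepatocyte shift in the values of this list was not tested.

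The steroid and fatty acid partners of the members were not called at any dose. All 16 genes of bile acid synthesis and steroid ring reduction were present. Against 6.52% of all present probes, 4 of the 16 had an unadjusted p under 0.05 at 75 mg/kg/day, all higher. They were *Hsd17b6*, a hydroxysteroid dehydrogenase gene, at 0.56 (SE 0.16, adjusted p = 0.191), *Cyp39a1*, an oxysterol hydroxylase gene, at 0.94 (SE 0.28, adjusted p = 0.208), *Cyp27a1*, a sterol hydroxylase gene, at 0.30 (SE 0.12, adjusted p = 0.353) and *Hsd3b7*, which acts early in bile acid synthesis, at 0.34 (SE 0.14, adjusted p = 0.358). The median of the list was 0.27. The list of epoxy fatty acid formation and the fatty acid sensor PPAR alpha had 12 present genes. Against 6.52% of all present probes, 3 of the 12 had an unadjusted p under 0.05 at 75 mg/kg/day, all higher. Among the 3 were *Cyp2c29* at 0.55 (adjusted p = 0.239) and *Ppara* itself at 0.28 (adjusted p = 0.445). The list median was 0.34.

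The labels name both lung and liver. All 8 measured hepatocyte markers were well above background on every array, with a median control log2 ratio of 5.36. Of 7 lung epithelium genes, 0 were well above background on all arrays and 2 were so on no array. *Sftpd*, a surfactant protein gene, was well above background on 19 of 20 arrays. Of *Sftpa1*, 1 probe was so on 16 arrays and the other on 0. At the highest dose *Sftpd* differed from control by 1.19 on the log2 scale (limma adjusted p = 0.0688). All 5 mice at that dose lay above all controls, as they did for 0.936% of all present probes. Among markers of other cells at 75 mg/kg/day, *Marco* of Kupffer cells (2.19) and *Lyve1* of endothelial cells (2.23) were called higher, against 0.135% of all present probes called. The median change was 0.064 over the Kupffer list, far below *Marco*, and 0.43 over the endothelial list. In the Kupffer list *Cd163* (-0.34) and *Csf1r* (-0.30) were lower and not called, and all others were above 0. The part of these cells in the values of the members was not tested.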

How the data were processed

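The labels name both lung and liver, and the RNA of 20 mice (4 groups of 5) is taken here as liver, as in the paper. It was hybridized against universal reference RNA on two-color arrays. The authors deposited spot intensities with local background and outlier marks from Feature Extraction (10.1.1.1 in the file headers), and log2 ratios normalized by LOWESS. Median intensities were corrected by normexp (offset 50) and normalized by loess, and spots were averaged per probe in limma 3.58.1 (R 4.3.3, with statmod 1.5.0). Figures used Python 3.11.15 and matplotlib 3.10.9. Presence required a liver signal over a limit set by 153 negative controls, their 5% trimmed mean with 3 trimmed SDs added, on 4 or more arrays in any group of 5. Each dose was contrasted with control in 1 model of 20 arrays. Between 51.9% and 67.5% of spots were above background in the liver channel, 0 were saturated, and the ratios correlated with the authors' at r of 0.994 to 0.996. MAANOVA was not used here, and all arrays were kept, although the methods removed 1 unnamed sample. A gene is represented by its present probe of highest mean intensity. Named genes are the members, the 3 genes most like *Ephx1* and *Ephx2*, and in each list the called genes or, where none were, up to 5 with the smallest unadjusted p at the highest dose, of which some are not reported here. Members and lists were chosen with earlier results of these data known. The fit was tested on simulated data. Alternatives changed the correction, normalization, presence filter, slide term, samples, adjustment and probe choice.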

Additional observations from a re-analysis of the deposited data

Results flagged for a closer look

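Of 40 groups of 5 arrays over the 10 probes, 2 had an array far from the others by Dixon's test (critical value 0.71), and chance gives about 2. Both were the array of replicate 12 at 50 mg/kg/day. Its log2 ratio for *Akr1a1* was -0.2069, below the next value of 0.2157, and for *Akr1d1* it was 2.421, below 3.8865.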

How the results depend on the processing

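The count of members called was 0 at every dose and for the trend under all alternatives run, those that left out 1 array included. A member's direction turned in 9 of 288 values under other settings. Some of these values could not turn, because the presence filter, the adjustment and the use of control and that dose alone leave the estimate unchanged. With the liver channel alone, *Ephx1* at 25 mg/kg/day was -0.23, *Ephx2* was -0.044, -0.17 and -0.51 at 25, 50 and 75, and *Akr7a5* was -0.008 at 25. With slide as a fixed block, *Akr7a5* was -0.066 at 25 mg/kg/day, *Ephx2* -0.029 at 75 and *Akr1c14* 0.0485 at 75. With the scanner software's processed signals, *Akr1c14* was -0.007 at 50. Leaving out 1 array turned 13 of 480 values. An array of another dose group does not enter the difference of a dose from control, so many of these values could not turn. The ranges were -0.028 to 0.22 for *Ephx1* at 25 mg/kg/day, -0.062 to 0.17 for *Akr7a5* at 25, -0.013 to 0.23, -0.016 to 0.16 and -0.24 to 0.11 for *Akr1c14* at 25, 50 and 75, and -0.097 to 0.14 for *Ephx2* at 75. The cause was not tested. Scale normalization between arrays gave the highest values at 25 and 50 mg/kg/day for all members but *Akr1a1*, and at 75 for none, with *Akr1c6* at 2.50 at 50 mg/kg/day (SE 1.76, adjusted p = 0.708). The number of members with an unadjusted p under 0.05 at 50 mg/kg/day ranged from 0 to 4 when 1 array was left out. Over all present probes, the count called at 75 was 37, against 5 with control and that dose alone, 7 with scale normalization, 58 and 62 with slide as a fixed and a random block, 62 with processed signals, and 25 to 72 when 1 array was left out. The trend called 43 probes, against 5 to 109 under other settings. The samples are numbered 1 to 20 with no number shared between groups, so arrays were matched by slide alone, in the fits with slide as a block.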
